A study of Drosophila melanogaster with 9 samples.

Results

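The replication-dependent histone genes of *Drosophila* lie on chromosome arm 2L in a tandem repeat, each unit of which carries a His1, His2A, His2B, His3 and His4 gene. The genes described here were all those of the deposited gene table whose identifier is CG followed by a number between 33801 and 33910. The table held 106 of these 110 identifiers among its 15168 genes: 22 copies of His1, 19 of His2A, 22 of His2B, 22 of His3 and 21 of His4. A further 5 repeat genes with earlier numbers (CG31617, CG31618, CG17949, CG31613 and CG31611) fell outside this choice and are given for comparison. Because the copies are near-identical and share reads, copies of the same type and length were summed, which gave 11 length groups.

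The histone genes of the repeat are switched on in S phase, when new DNA has to be packaged, and a nuclear structure called the histone locus body gathers on them. Their mRNAs end in a conserved stem-loop in place of a poly(A) tail, which stem-loop binding protein and the U7 small nuclear ribonucleoprotein process. Both proteins targeted here are known from heterochromatin: Su(var)3-9 methylates a lysine of histone H3, and HP1a docks on that modification.

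S2 cells, a *Drosophila* embryonic cell line, were transfected with 1 µg of dsRNA targeting HP1a, Su(var)3-9 or GFP (the control), and their total RNA was sequenced after 3 days, with 3 replicates in each of the 3 groups. All groups, the control included, were transfected with dsRNA, and the labels do not say whether this was done in one batch. The study's methods describe the RNAi for RNA sequencing as performed in triplicate and the labels say no more of the replicates, so p-values measure the spread between these libraries. The study asked what loss of either protein does to pericentromeric genes. The values are TPM, transcript abundances corrected for length and scaled to one common sum per library. TPM do not carry the sequencing depth. The study supplies sequencing statistics of its RNA libraries, which were not used here, so counting intervals are not given.

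The gene of HP1a (CG8409) read 393, 285 and 317 TPM in HP1a RNAi-labelled libraries, against 91.5, 53.8 and 79.7 TPM in the control. Su(var)3-9 (CG6476) read 380, 262 and 463 TPM in Su(var)3-9 RNAi-labelled libraries, against 36.9, 23.8 and 36.4 TPM in the control. Both targets were thus higher in RNA in the libraries that carry their own RNAi label, and the groups are called by their labels throughout. The study checked depletion by immunoblot, at the level of protein, which was not analysed here. Of 7 markers of hemocyte-like S2 cells, 5 averaged at least 1 TPM, and all 7 summed to 33.1 to 37.2 TPM in HP1a RNAi-labelled libraries, 27.4 to 52.2 TPM in Su(var)3-9 RNAi-labelled libraries and 33.8 to 43.4 TPM in the control. The gut trypsins alphaTry and betaTry were at 0 in every library, and the 9 markers of muscle, neurons, gut and germ line in the table summed to 0.85 to 1.23, 0.99 to 2.45 and 1.77 to 2.85 TPM in the same order. The highest of these 9 were bam (germ line), with a mean of 0.85 TPM, and elav (neurons), with 0.58 TPM. The hemocyte-like markers Hml and Ppn were as low, at means of 0.81 and 0.42 TPM. Genes with a CG identifier took 10.2% to 11.1% of the TPM in HP1a RNAi-labelled libraries, 9.70% to 14.2% in Su(var)3-9 RNAi-labelled libraries and 10.9% to 15.4% in the control.

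The histone repeat was listed at or near 0 in this table. Of the 106 copies, 90 (84.9%) were listed at 0 in all 9 libraries, 16 were above 0 in at least one library, and none was above 0 in all 9. The highest value of any copy was 2.49 TPM. For comparison, 977 of 2764 other CG genes of 415 to 898 bases (35.3%) were at 0 in all libraries. At 415 to 585 bases, the range of every type but His1, this held for 396 of 879 (45.1%). At 850 to 950 bases, around the length of His1, it held for 154 of 577 (26.7%). Among other CG genes of 415 to 585 bases, the lowest value above 0 lay between 0.05 and 0.16 TPM depending on the library. Only 4 histone copies had a mean above 0.1 TPM. A value of 0 here is a listed value: the reads behind it, and how the alignment treated reads that match many copies, are not given in the sources used here, and their part in the zeros was not tested. In bulk RNA, fewer cells in S phase and less histone mRNA per cell cannot be told apart.

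The zeros were spread unevenly over the histone types. His2A, a core histone that pairs with His2B, was at 0 in every library for all 19 copies. His2B had 20 of 22 copies at 0 and His3 had 21 of 22. His1, the linker histone, had 15 of 22 copies at 0, and His4, the partner of His3, had 15 of 21. Of the 4 copies whose length no other copy shared (CG33907, CG33908, CG33909 and CG33910), all 4 were above 0 in some library, against 12 of the 102 copies that shared a length. This split was looked at after the values were seen and carries no test.

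Much of the detected histone signal came from 3 copies near one end of the array. CG33908, CG33909 and CG33910 held 72.8% of the member TPM summed over the 9 libraries, with a range over single libraries of 29.5% in HP1a RNAi replicate 2 to 94.7% in HP1a RNAi replicate 1, and with CG33813 and CG33801 the share was 93.9%. In the gene order of the RefSeq table (Release 6 assembly), the 111 repeat genes fell into 23 units. The first 3 units held 6 of the 16 copies above 0 and 78.2% of the member TPM, while the other 20 units held 10 copies above 0 among 98. The choice of 3 units followed the values and is a description.

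**Figure D1:**
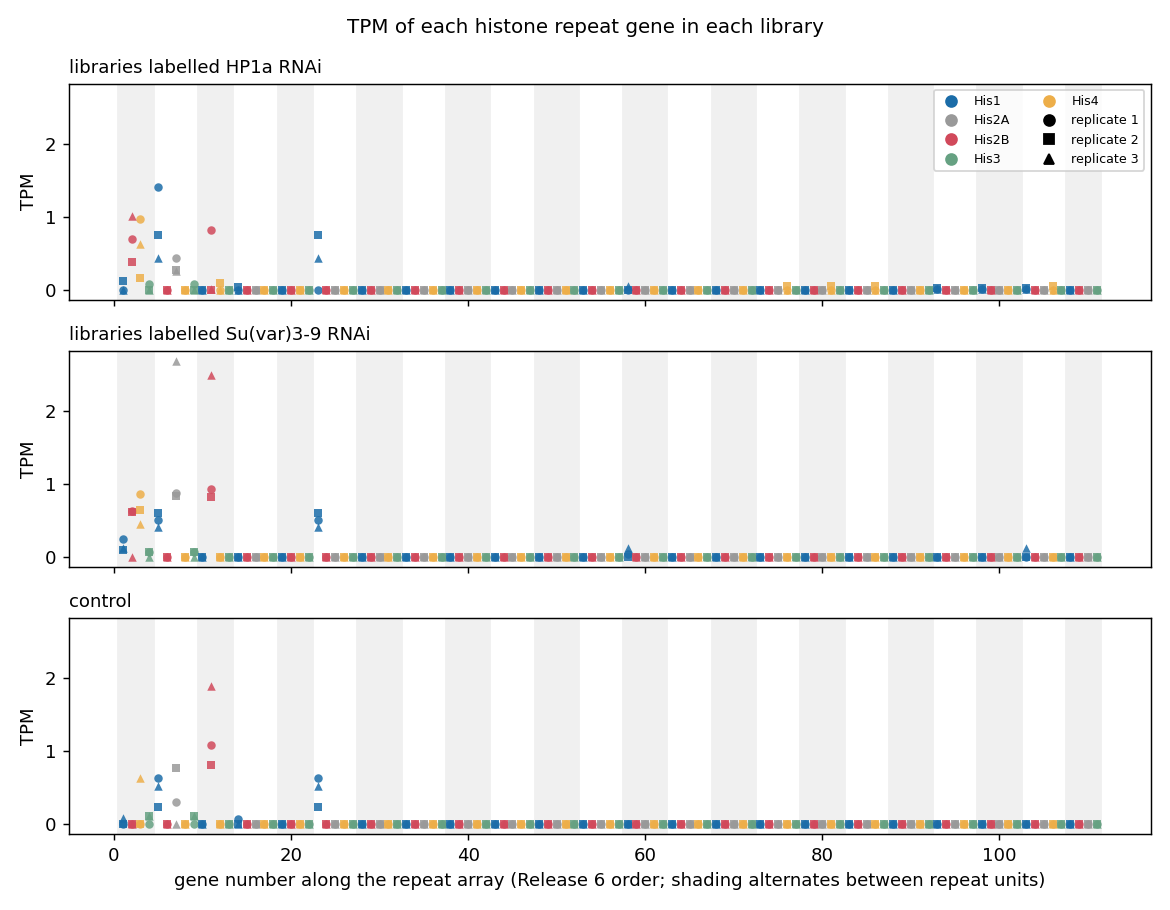
TPM (y axis) of each of the 111 repeat genes in order along the array (x axis, gene number in Release 6 order), one panel per group, with symbols for replicates and colours for histone types; shading alternates between repeat units. Values above 0.2 TPM sit in the first 3 units and at CG33813 in unit 6, and nearly every other gene lies at 0 in all 3 panels.

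CG33908 is the single His2B copy of 415 bases and the most abundant member, with a mean of 0.99 TPM. It read 0.82, 0 and 0.01 TPM in HP1a RNAi-labelled libraries, 0.93, 0.83 and 2.49 TPM in Su(var)3-9 RNAi-labelled libraries, and 1.09, 0.81 and 1.90 TPM in the control. In HP1a RNAi-labelled libraries the copy was nearly absent from replicates 2 and 3, while replicate 1 lay at the lower edge of the control.

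CG33910 is the His2B copy of 585 bases. It read 0.70, 0.38 and 1.01 TPM in HP1a RNAi-labelled libraries and 0.63, 0.62 and 0 TPM in Su(var)3-9 RNAi-labelled libraries, and it was listed at 0 in all 3 control libraries. HP1a RNAi-labelled libraries and the control did not overlap, with CG33910 higher in 3 of 3. Of the 8510 features that averaged 0.1 TPM or more, 0.999% had every HP1a RNAi-labelled library above every control library. CG33910 is among them only through the RNAi-labelled groups, so nothing is read from its place beside that share.

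CG33909 is the His4 copy of 574 bases, in the same unit as CG33910. It read 0.97, 0.16 and 0.63 TPM in HP1a RNAi-labelled libraries, 0.87, 0.64 and 0.45 TPM in Su(var)3-9 RNAi-labelled libraries, and 0, 0 and 0.63 TPM in the control. One control library was as high as the middle HP1a RNAi-labelled library, so these groups overlapped. The other His4 copies were seen only in replicate 2 of HP1a RNAi-labelled libraries. CG33907 was at 0.09 TPM there, and CG33869, CG33877, CG33879 and CG33881 were at 0.05 TPM each. The listed values of these 4 copies were identical in every library.

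His1 was summed over 22 copies of 898 bases, 7 of which were above 0 somewhere. The sum was 0.06, 1.00 and 0.55 TPM in HP1a RNAi-labelled libraries, 0.81, 0.70 and 0.77 TPM in Su(var)3-9 RNAi-labelled libraries, and 0.71, 0.24 and 0.61 TPM in the control. Su(var)3-9 RNAi-labelled libraries were tightly grouped, and HP1a RNAi-labelled libraries spanned the whole range of the other groups. The sum was mostly CG33813, which equalled the earlier-numbered His1 copy CG31617 in 8 of 9 libraries. In replicate 1 of HP1a RNAi-labelled libraries they parted, with CG31617 at 1.41 TPM and CG33813 at 0. Both have the same length, and a low His1 sum in that library therefore depends on which copy is counted.

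His3 was detected through a single copy of 22, CG33803. It read 0.08, 0 and 0 TPM in HP1a RNAi-labelled libraries, 0.07, 0.07 and 0 TPM in Su(var)3-9 RNAi-labelled libraries and 0, 0.11 and 0.11 TPM in the control, and the earlier-numbered copy CG31613 carried identical values in all 9. His2A was seen only through the earlier-numbered copy CG31618, at 0.44, 0.27 and 0.26 TPM in HP1a RNAi-labelled libraries, 0.88, 0.84 and 2.69 TPM in Su(var)3-9 RNAi-labelled libraries and 0.31, 0.77 and 0 TPM in the control. Su(var)3-9 RNAi-labelled libraries were all above the other groups for this gene, the lowest at 0.84 TPM beside 0.77 TPM in a control library. CG31618 averaged 0.72 TPM, near the floor. Of genes averaging at least 1 TPM, 0.335% had every Su(var)3-9 RNAi-labelled library above every control library. For 3.67% every HP1a RNAi-labelled library was below every Su(var)3-9 RNAi-labelled library. CG31618 lies under that minimum, and the share with both separations was not computed, so nothing is read from it. CG17949 (His2B) and CG31611 (His4) were at 0 throughout. Each member had 1 transcript in the transcript table, with the same values as in the gene table.

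**Figure D2:**
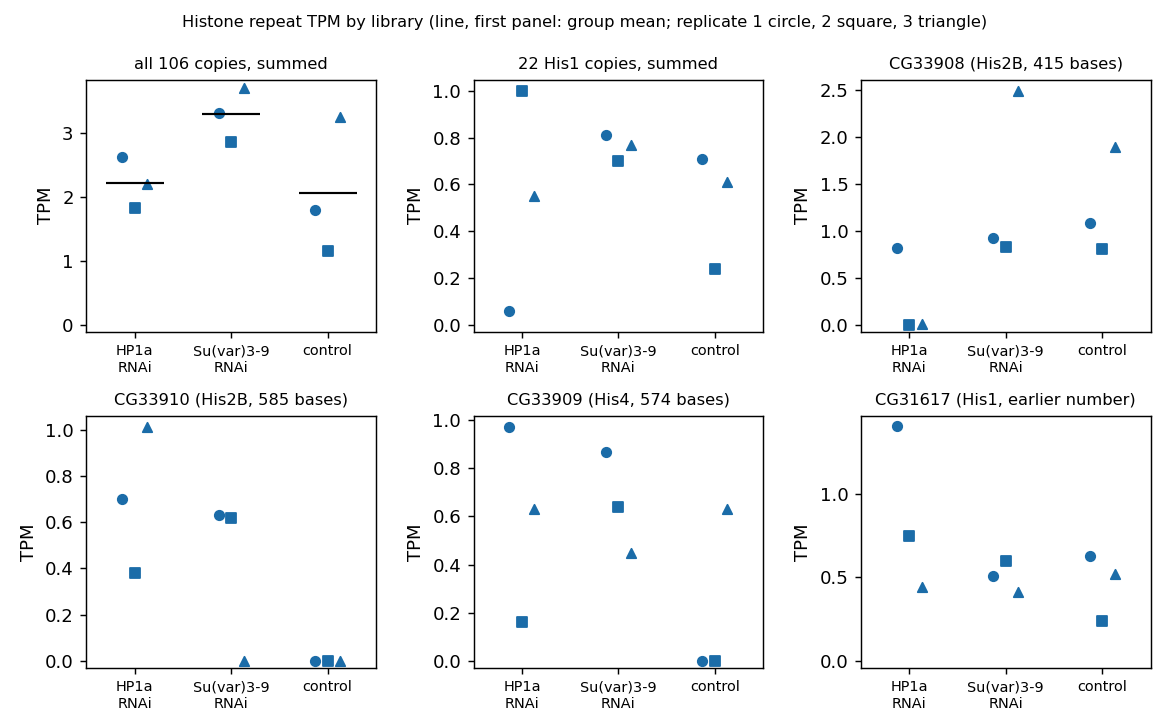
TPM (y axis) in each library for all 106 copies summed, the 22 His1 copies summed, CG33908, CG33910, CG33909 and the earlier-numbered CG31617, with HP1a RNAi, Su(var)3-9 RNAi and control from left to right; symbols mark replicates, and the line in the first panel is the group mean. CG33910 is at 0 in the 3 control libraries, while the summed level of HP1a RNAi-labelled libraries lies within the control range.

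Summed over all 106 copies, the histone repeat read 2.63, 1.83 and 2.20 TPM in HP1a RNAi-labelled libraries, 3.31, 2.86 and 3.71 TPM in Su(var)3-9 RNAi-labelled libraries, and 1.80, 1.16 and 3.25 TPM in the control. The means were 2.22 ± 0.400, 3.29 ± 0.425 and 2.07 ± 1.07 TPM (SD, n = 3 each). On this sum as deposited, neither group labelled as a knockdown stood clear of the control, whose own libraries spread the most. With the earlier-numbered copies added, or after rescaling to CG genes, Su(var)3-9 RNAi-labelled libraries did lie above the control, as given below. The log2(TPM + 1) difference of HP1a RNAi-labelled libraries from the control was 0.12 ± 0.30 (SE; exact two-sided permutation p = 0.8). That of Su(var)3-9 RNAi-labelled libraries was 0.54 ± 0.30 (exact permutation p = 0.2), and both comparisons share the control. HP1a RNAi-labelled libraries all lay below Su(var)3-9 RNAi-labelled libraries, by -0.42 ± 0.13 on this scale (exact permutation p = 0.1, beside 3.67% of all genes tested with such a separation, and the smallest that 3 against 3 libraries allow). Adjusted over the 3 comparisons, the exact p-values were 0.8, 0.3 and 0.3. Without control replicate 2, the difference of HP1a RNAi-labelled libraries from the control turned to -0.11.

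No length group reached the mean of 1 TPM that the fit across all genes required, so 0 of 11 were tested there. That fit (limma on log2(TPM + 1), Benjamini-Hochberg adjusted p under 0.05) called 285 of 6573 genes in HP1a RNAi-labelled libraries against the control (4.34%), 11 in Su(var)3-9 RNAi-labelled libraries against the control (0.167%) and 4 between these 2 groups (0.0609%). With the minimum lowered to 0.1 TPM, an alternative chosen after the data were seen, 4 histone groups were tested. CG33910 passed this minimum only through the groups where it was above 0, since it was listed at 0 in the control. Its call in HP1a RNAi-labelled libraries against the control, the only 1 among the 4 groups (with 2.73% of 8510 features called, and 2.71% at a pseudocount of 0.1), is therefore no test of a difference and supports nothing here. CG33908 was not called in that comparison (log2 difference -0.86, limma adjusted p = 0.0945). Without control replicate 2 its limma adjusted p was 0.0494, in a fit that called 2701 of the 8510 features (31.7%). With all 6 libraries, 0 of the 4 groups were called against the control in Su(var)3-9 RNAi-labelled libraries (0.094% of features called) or between the groups with RNAi labels (0.047%). Summed by histone type, His2B alone reached 1 TPM and was called in no comparison, with limma adjusted p-values of 0.496, 0.751 and 1.0.

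Of the 44 listed genes outside the repeat that make, process or package histones or act in S phase, 42 averaged at least 1 TPM. Among the 7 genes of the histone locus body and histone transcription, Trf2 fell in HP1a RNAi-labelled libraries (1 of 7 called, all calls lower, beside 4.12% of all genes called lower). Trf2 encodes a TBP-related factor that is known to drive the His1 promoter, which lacks a TATA box. It read 1.71, 2.07 and 0.94 TPM in HP1a RNAi-labelled libraries, 0.50, 0.95 and 2.67 TPM in Su(var)3-9 RNAi-labelled libraries, and 5.18, 6.38 and 4.04 TPM in the control, so both groups lay below every control library. Such a separation held for 31.5% of all genes tested in HP1a RNAi-labelled libraries and for 7.91% in Su(var)3-9 RNAi-labelled libraries. On the log2 scale Trf2 differed by -1.28 ± 0.20 (SE, n = 3 libraries a group, limma adjusted p = 0.00532) in HP1a RNAi-labelled libraries. The median gene moved by -0.27 in this comparison, which leaves -1.01 for Trf2 relative to it. The call held without any one library and was lost after median-ratio scaling, which changed all calls from 14 higher and 271 lower to 12 higher and 35 lower (Trf2 -1.04 relative to the median gene, limma adjusted p = 0.166). In Su(var)3-9 RNAi-labelled libraries the fold change was -1.47 ± 0.31, short of the threshold (limma adjusted p = 0.0698). Without Su(var)3-9 RNAi replicate 1, 2 or 3 it passed the threshold, at limma adjusted p-values of 0.0079, 0.00446 and 9.1e-06, in fits that called 140, 125 and 724 of 6573 genes in place of 11. Without control replicate 1, 2 or 3 it did not (limma adjusted p = 0.0634, 0.456 and 0.168), nor under the other scalings (0.265 to 0.323).

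The other 6 genes of this list were not called in any comparison. Clamp, a zinc-finger protein that binds GA repeats, averaged 15.4 ± 1.66, 14.8 ± 3.40 and 17.5 ± 6.26 TPM in HP1a RNAi-labelled libraries, Su(var)3-9 RNAi-labelled libraries and the control (SD, n = 3 each). For wge, a chromatin protein, the same means were 8.04 ± 0.897, 7.12 ± 3.20 and 9.72 ± 0.694 TPM. Relative to the median gene, the median of the 7 genes was 0.14 in HP1a RNAi-labelled libraries and 0.07 in Su(var)3-9 RNAi-labelled libraries.

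PCNA, the sliding clamp of the replication fork, was the only called gene among 13 S phase genes (1 lower and 0 higher, in HP1a RNAi-labelled libraries, beside 4.12% of all genes called lower). It read 10.6, 6.33 and 9.85 TPM in HP1a RNAi-labelled libraries, 7.82, 7.58 and 8.76 TPM in Su(var)3-9 RNAi-labelled libraries, and 14.7, 16.0 and 18.9 TPM in the control, with no overlap with the control in either group. Of all genes tested, 31.5% lay wholly below the control in HP1a RNAi-labelled libraries and 7.91% in Su(var)3-9 RNAi-labelled libraries. The log2 fold change of PCNA was -0.84 ± 0.21 in HP1a RNAi-labelled libraries (limma adjusted p = 0.0462) and -0.95 ± 0.26 in Su(var)3-9 RNAi-labelled libraries, where it was not called (limma adjusted p = 0.289). The first call was lost without HP1a RNAi replicate 1, 2 or 3 or without control replicate 1 or 3 (limma adjusted p = 0.0997, 0.278, 0.13, 0.105 and 0.112), and after median-ratio scaling (limma adjusted p = 0.317). In Su(var)3-9 RNAi-labelled libraries PCNA passed the threshold without Su(var)3-9 RNAi replicate 3 (limma adjusted p = 0.0191, with 724 of 6573 genes called) and in none of the other 5 such fits (0.338 to 0.85). The ribonucleotide reductase subunits RnrS and RnrL, which supply deoxynucleotides, were not called. RnrS averaged 32.8 ± 1.40, 38.2 ± 8.77 and 54.3 ± 9.48 TPM, and RnrL 26.8 ± 0.981, 25.6 ± 6.40 and 32.7 ± 6.10 TPM, in HP1a RNAi-labelled libraries, Su(var)3-9 RNAi-labelled libraries and the control (SD, n = 3 each).

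As a list, the S phase genes sat slightly below the median gene. Their median relative to it was -0.14 in HP1a RNAi-labelled libraries and -0.19 in Su(var)3-9 RNAi-labelled libraries, with 11 and 12 of 13 genes below it. In 7 of the 13 (53.8%), every HP1a RNAi-labelled library was below every control library, beside 31.5% of all genes tested. The list was not tested as a set. For Su(var)3-9 RNAi-labelled libraries this held for 3 of 13, beside 7.91% of all genes.

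The 9 histone chaperones and assembly factors had 0 calls in every comparison, with 4 at an unadjusted limma p under 0.05 in HP1a RNAi-labelled libraries (1580 of all 6573 genes) and 0 in Su(var)3-9 RNAi-labelled libraries (496 of 6573). Nap1, a chaperone of H2A and H2B, averaged 116 ± 3.06, 121 ± 28.0 and 160 ± 30.3 TPM in HP1a RNAi-labelled libraries, Su(var)3-9 RNAi-labelled libraries and the control. Caf1-55, a subunit of chromatin assembly factor CAF-1, averaged 21.8 ± 1.77, 24.0 ± 4.64 and 31.7 ± 6.82 TPM (SD, n = 3 each). Relative to the median gene, the list's median was -0.16 and -0.15 in the comparisons with the control, with 8 of 9 genes below it in each. In 5 of the 9 genes, every HP1a RNAi-labelled library lay below the control, beside the 31.5% of all genes.

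Of the 9 genes that process the 3′ end of histone mRNA, 8 were tested and 0 were called in any comparison, and 0 had an unadjusted limma p under 0.05. Slbp, the stem-loop binding protein, averaged 15.6 ± 1.74, 13.4 ± 1.14 and 16.7 ± 4.18 TPM in HP1a RNAi-labelled libraries, Su(var)3-9 RNAi-labelled libraries and the control. Cpsf73, the endonuclease that cuts the transcript, averaged 6.55 ± 0.553, 6.71 ± 0.884 and 8.17 ± 2.34 TPM (SD, n = 3 each). The U7 small nuclear RNA (CR33504, 71 bases) was listed at 0 in all libraries. The list's median lay at 0.00 and 0.03 relative to the median gene.

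**Figure D3:**
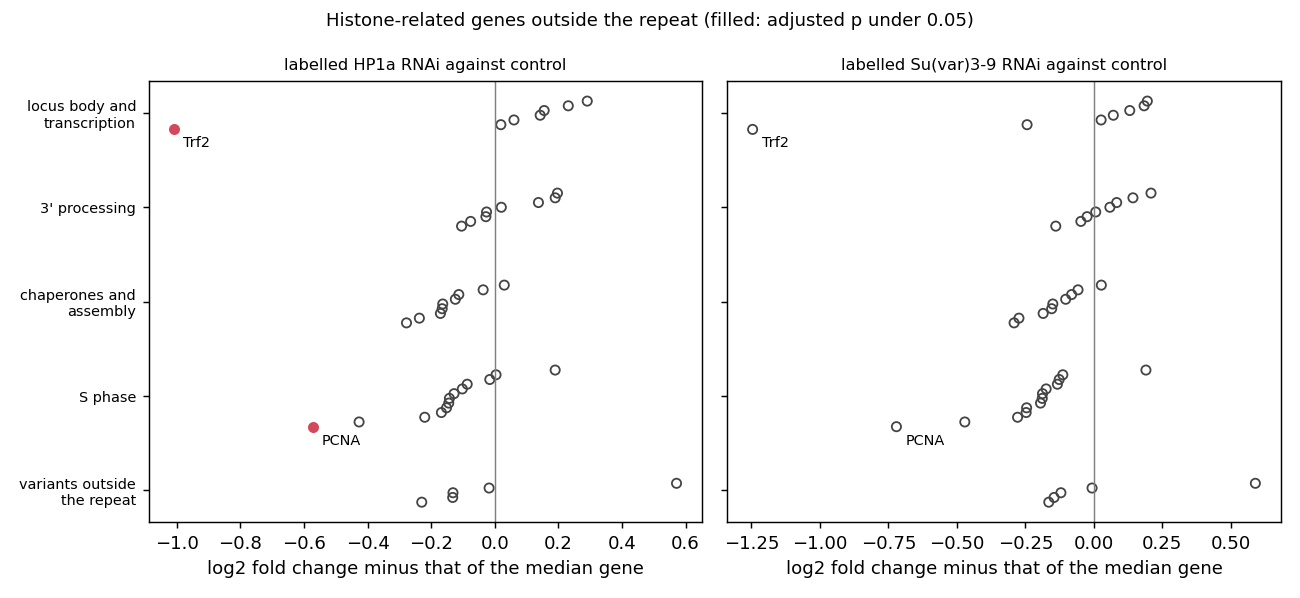
Log2 fold change relative to the median gene (x axis) of each tested gene in the 5 lists (rows), in HP1a RNAi-labelled libraries (left) and Su(var)3-9 RNAi (right) against the control. Trf2 at -1.01 and PCNA at -0.57 are the filled, called points on the left, and no point is filled on the right.

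Histone genes outside the repeat, which produce polyadenylated mRNA through the cell cycle, were detected in every library. His3.3B, which encodes the replacement histone H3.3, read 99.1, 108 and 110 TPM in HP1a RNAi-labelled libraries, 80.0, 99.9 and 156 TPM in Su(var)3-9 RNAi-labelled libraries, and 183, 125 and 119 TPM in the control. His4r, a separate H4 gene, read 64.2, 66.3 and 87.1 TPM in HP1a RNAi-labelled libraries, 75.7, 75.4 and 81.1 TPM in Su(var)3-9 RNAi-labelled libraries and, in the control, 140, 94.2 and 80.0 TPM. Their groups overlapped with the control except for His3.3B in HP1a RNAi-labelled libraries, which lay below it as did 31.5% of all genes tested. Neither His3.3B nor His4r was called. Of the 6 variant genes, 5 were tested and 0 were called in any comparison (0 at an unadjusted limma p under 0.05 against the control). BigH1, the embryonic linker histone, averaged 0.33 TPM and was not tested. On the TPM scale, His4r in its lowest library (64.2 TPM) thus exceeded the sum of all 106 repeat copies in their highest (3.71 TPM).

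**Figure D4:**
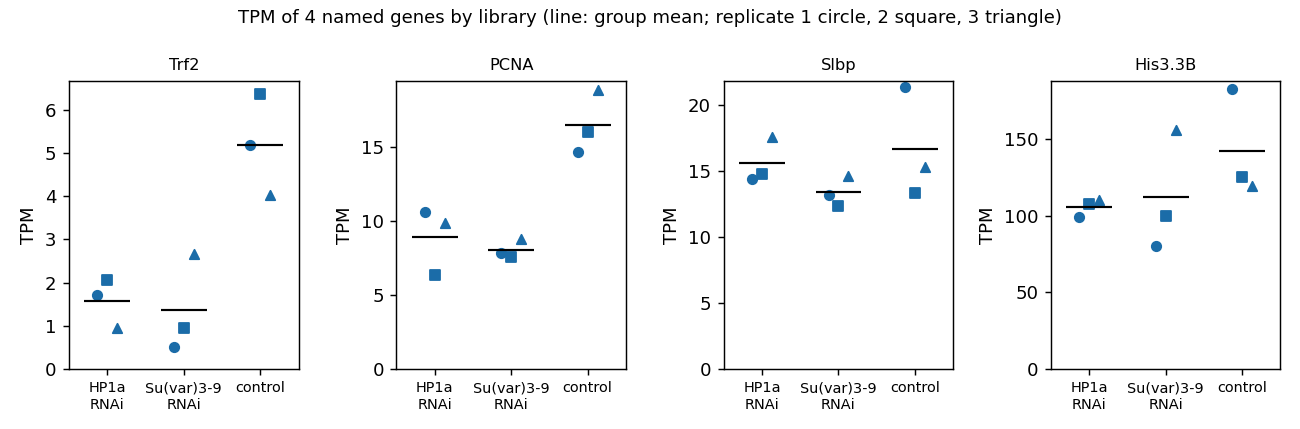
TPM (y axis, from 0) of Trf2, PCNA, Slbp and His3.3B in each library, with HP1a RNAi, Su(var)3-9 RNAi and control from left to right; symbols mark replicates and lines are group means. Trf2 and PCNA lie below every control library in both other groups, while Slbp overlaps with the control in both. Of all genes tested, 31.5% (HP1a RNAi) and 7.91% (Su(var)3-9 RNAi) lie below every control library.

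Between HP1a RNAi-labelled libraries and Su(var)3-9 RNAi-labelled libraries, 0 genes of the 5 lists were called, and Trf2 differed by 0.20 ± 0.33 and PCNA by 0.11 ± 0.20 (log2, limma adjusted p = 1.0 each).

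Over the 9 libraries, the genes of at least 5 TPM whose log2 level followed the histone total most closely were Nup35 (r = 0.861), NimC4 (0.827), CG32857 (0.816), PGAP5 (0.809) and CG5958 (0.805), taken from 3369 genes. The libraries share groups and scaling and the total lies near the floor, so this is a description only.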

How the data were processed

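The members and gene lists were chosen with earlier results of these data known. The authors trimmed reads with Cutadapt 1.11, aligned them to dm3 with STAR 2.4.5a and quantified them with RSEM 1.3.0, as the study's methods state. They deposited TPM per gene and per transcript, which were used here. The authors also deposited comparison tables with posterior probabilities and fold changes, which were not used. Gene names and gene order came from a RefSeq table (Release 6 assembly), in which all 106 members matched. Its coordinates were not used, since the assemblies differ.

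Length groups, totals and lists were computed from the TPM. Genes averaging 1 TPM or more over 9 libraries were fitted as log2(TPM + 1) with limma 3.58.1 (trend, two-sided) in R 4.3.3, on the 6 libraries of each comparison, and p-values were Benjamini-Hochberg adjusted over all features. A fold change on this scale understates that of low genes. The histone total was tested by exact permutation. The fit was tested on simulated data. Named were every length group, the extreme copies, the earlier-numbered copies, the targets, called list genes, the 2 most abundant genes of each list and the 5 genes most like the total. Others singled out were chosen after their values were seen. Alternatives were other pseudocounts, filters, scalings and groupings of copies, all libraries in one fit, a replicate block, no trend and leaving out each library.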

Additional observations from a re-analysis of the deposited data

How the results depend on the processing

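The number of histone length groups called stayed at 0 without a filter, with copies summed by type and with the earlier-numbered copies. It was 1 in HP1a RNAi-labelled libraries against the control with a mean of at least 0.1 TPM, with pseudocount 1 or 0.1. Leaving out 1 library as well gave 0 to 2 groups there and 0 to 1 in Su(var)3-9 RNAi-labelled libraries. The fit with 2 groups called 2701 of 8510 features. Fits with 1 group called 45 features without HP1a RNAi replicate 2 and 379 without Su(var)3-9 RNAi replicate 3. These calls were of CG33910, which passed the minimum only through groups where it was above 0, and once of CG33908, and they support nothing here. With a mean of at least 1 or 5 TPM no group could be tested under any scaling. The histone total differed from the control by -0.11 to 0.38 (log2) in HP1a RNAi-labelled libraries and by 0.31 to 0.80 in Su(var)3-9 RNAi-labelled libraries when single libraries were left out, and by -0.51 to -0.33 between these groups. Of its other alternatives none changed its direction. The exact p-values of the total could not fall below 0.1, so their side of the threshold was fixed in advance. As a single feature of the limma fit, the total was called in no comparison. Rescaling to CG genes moved the mean of each histone type by no more than the SD between replicates. The call of Trf2 in HP1a RNAi-labelled libraries was lost in 5 of 14 alternatives and that of PCNA in 12 of 15, with the direction kept in each. The cause was not tested. The 285 calls of that comparison became 47 with size factors, 49 with quantile normalization, 32 after rescaling to CG genes, 35 with all libraries in one fit, 60 without a filter, 114 with a mean of at least 5 TPM and 60 to 2767 when single libraries were left out. Of 36 pairs of a named gene and a comparison that were not called, 18 changed sign relative to the median gene in some alternative and 8 passed the threshold in some alternative.

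Replicate numbers showed no clear pairing of the libraries: deviations of same-numbered libraries from their group means correlated between -0.455 and 0.122. The values were not rescaled between libraries, so these correlations do not settle whether libraries were paired. With a replicate block, 605, 108 and 3 genes were called in the 3 comparisons, Trf2 was also called in Su(var)3-9 RNAi-labelled libraries (limma adjusted p = 0.00187), and the histone total kept its differences of 0.12, 0.54 and -0.42 (exact sign-flip p = 1.0, 0.25 and 0.25). TPM keep no depth, and most histone values lie at the floor, so changes in most of the repeat were not detectable here. For the few copies described, values are given and no change was established.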
